A study of Mus musculus with 4 samples.

Results

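Oxidative phosphorylation is the set of 5 protein complexes in the inner mitochondrial membrane that pass electrons from NADH and succinate to oxygen (complexes I to IV) and use the proton gradient so formed to make ATP (complex V, the ATP synthase). The members were taken from a table of RNA sequencing counts per gene by symbol: protein-coding mouse genes of the Nduf, Sdh, Uqcr, Cox4 to Cox8, Atp5 and mitochondrially encoded mt-Nd, mt-Co, mt-Cytb and mt-Atp families. This gave 107 of the 31227 genes in the table, 94 of them in the nucleus and 13 in the mitochondrial genome. The rule uses symbols only.

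The RNA came from colonic epithelium of mice with a chemically induced colitis, and the question was how loss of Smad4 changed these cells. Smad4 joins the Smads phosphorylated by TGF-β and BMP receptors and acts with them on target genes. All mice, 8 to 10 weeks old, drank 3.5% dextran sulfate sodium (DSS), which damages the lining of the colon, for 5 days, and then plain water up to day 7, when they were killed; in the labels the time reads 5 days. The comparison was of 2 wild-type (WT) libraries, replicates 1 and 3, with 2 libraries from mice with an epithelial Smad4 knockout (KO), replicates 1 and 2. For the Cre line that removed Smad4, and for the mouse strain, no name was given in the sources used here. Mice without DSS were not analysed here, so every difference below is one between genotypes under DSS.

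Each complex except complex II joins subunits made from both genomes. The mitochondrial genome encodes hydrophobic core subunits, which are transcribed and translated inside the organelle, while nuclear genes supply all other subunits, the assembly factors and the machinery that expresses the mitochondrial genes. Colonocytes draw much of their energy from oxidation of butyrate made by gut bacteria, so the respiratory chain is a main part of their metabolism.

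The libraries held 42577920 to 67927291 counts. Levels are CPM, counts relative to library sizes scaled by TMM, where a single count stood for 0.0150 to 0.0229 CPM. Nothing in the labels ties the libraries to separate mice, and p-values therefore measure only the spread among these libraries, possibly a technical one. Smad4 itself was at 152 and 180 CPM in WT and at 51.5 and 41.1 CPM in KO. Its log2 fold change was -1.84 (SE 0.14, adjusted p = 0.00163 by edgeR's quasi-likelihood test with Benjamini-Hochberg adjustment, as are all adjusted p-values below). A gene is called when its adjusted p is under 0.05. The 9 epithelial markers, led by Krt8, summed to 18390 to 19278 CPM in WT and 18992 to 19616 CPM in KO (4 called higher, 1 lower). The 6 colonocyte markers, led by Ceacam1, summed to 6940 to 7365 CPM in WT and 10895 to 11048 CPM in KO (3 higher, 3 lower). Log2 fold changes of these 6 ran from -1.75 to 1.21 with a median of -0.16, so the higher sum was not shared by all of them. The 8 neutrophil markers, led by S100a9 and with Camp and Mpo at 0 in all libraries, summed to 9.75 to 13.6 CPM in WT and 108 to 110 CPM in KO, with 4 of the 6 tested called higher. Fibroblast markers, led by Fbln1, summed to 28.7 to 29.3 CPM in WT and 53.8 to 59.7 CPM in KO (2 of 7 higher), and macrophage markers, led by Cd14, to 176 to 195 and 170 to 175 CPM. Cd14 dominates that sum. Of the 8 macrophage markers 2 were called higher and 6 lay above WT in both KO libraries, with a median log2 fold change of 1.12. Over all tested genes 8.83% were called higher and 6.40% lower, and 31.0% lay above WT in both KO libraries. T cell markers, led by Cd8a, summed to 3.51 to 4.57 CPM in WT and 9.13 to 10.1 CPM in KO, with 1 of 6 called higher. Markers of smooth muscle (Tagln, 0 of 6), B cells (Ms4a1, 0 of 2, with Mzb1 at 0) and endothelium (Vwf, 0 of 4) each summed to at most 7.62 CPM in any library. The part of these other cells in the values below was not tested. In bulk RNA a smaller share of cells of a type and less RNA per cell cannot be told apart.

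The WT libraries differed from each other more than the KO libraries did, and most of all at genes with short transcripts, to which many nuclear-encoded subunits belong. As a comparison, 212 protein-coding genes had a transcript under 700 bases and a mean level of at least 5 CPM. Their median log2 ratio of WT replicate 3 to WT replicate 1 was -0.26, while that of KO replicate 2 to KO replicate 1 was -0.04. For the 33 tested nuclear-encoded members of that length, at any level, the medians were -0.41 and -0.09. Of 88 tested nuclear-encoded members, 19 lay more than 1.5-fold apart in the WT pair and 1 in the KO pair. For 38 of the 88 both KO libraries fell between the WT libraries (43.2%, against 12.3% of all tested genes), and in 36 of these 38 WT replicate 3 was the lower one. For some of the named members whose value depends on a WT library, but not for all, the value is also given without that library.

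**Figure D1:**
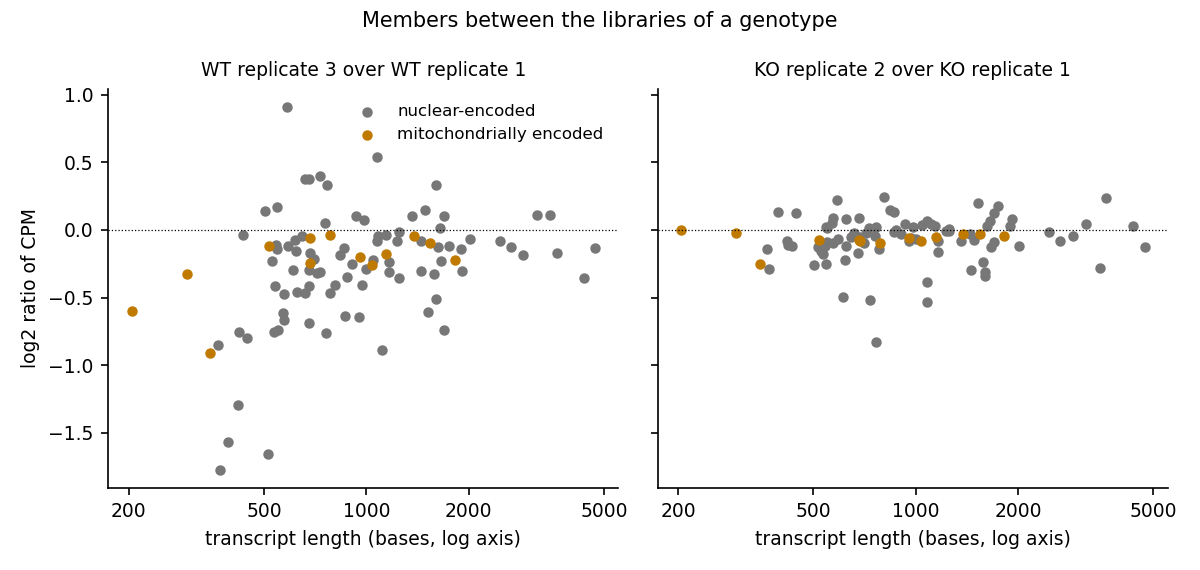
Log2 ratio of CPM between the libraries of one genotype (left, WT replicate 3 over replicate 1; right, KO replicate 2 over replicate 1) against transcript length in bases on a log axis, 1 point per tested member (Cox6a2, without a count in KO, only on the left). Nuclear-encoded members under 700 bases had a median of -0.41 in the WT pair and -0.09 in the KO pair.

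The clearest difference was between the genomes. All 13 mitochondrially encoded transcripts were higher in both KO libraries than in both WT libraries, and 7 of them rose by the test. None was called lower. All 13 come from 1 genome and were measured in the same 4 libraries, so they are not 13 independent observations. Over all 15838 tested genes, 8.83% were called higher and 6.40% lower, both KO libraries lay above both WT libraries for 31.0% and below them for 28.4%, and the median log2 fold change was 0.01. The median of the 13 was 0.36, with a range from 0.21 to 0.75. Of the 88 nuclear-encoded members tested, 0 were called higher and 2 lower, and their median was -0.07. At an unadjusted p under 0.05 there were 15 of the 88 in either direction, a smaller share than the 29.9% of all tested genes. Both KO libraries were below both WT libraries for 24 of the 88, above them for 3, and overlapped for 61.

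**Figure D2:**
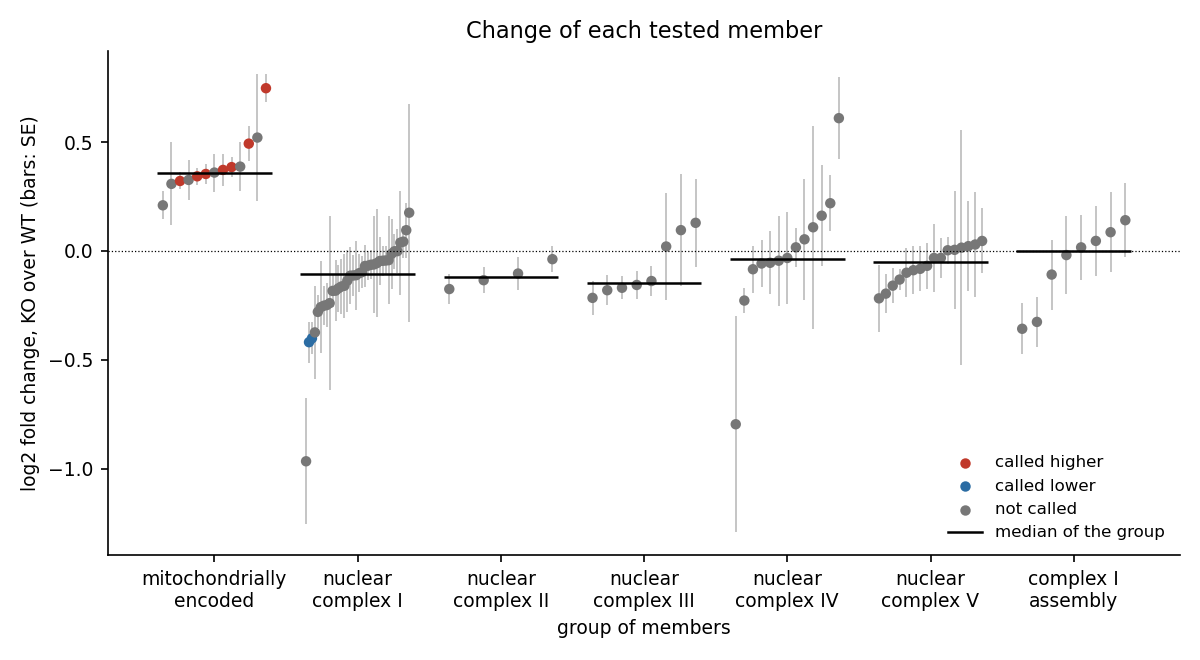
Log2 fold change of KO over WT with its SE for each tested member, in groups by genome and complex, with the group median as a black line; Cox6a2, which had no count in KO, and 2 members that are not subunits (Atp5s and Cox7a2l) are left out as points. The mitochondrially encoded members lie at 0.21 to 0.75, and the only points called lower are Ndufa11 and Ndufc1 of complex I.

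The 7 mitochondrially encoded subunits of complex I form its proton-pumping membrane arm. mt-Nd6 stood at 413 and 381 CPM in WT and at 685 and 649 CPM in KO. Its KO libraries were both well above its WT libraries, and it had the largest log2 fold change of the 13 (0.75, SE 0.064, adjusted p = 0.00217). mt-Nd5 was at 2080 and 1780 CPM in WT and at 2756 and 2675 CPM in KO. It too rose without overlap (log2 fold change 0.49, SE 0.079, adjusted p = 0.0156). mt-Nd1, the subunit at the foot of the membrane arm, was at 3005 and 2618 CPM in WT and 3717 and 3561 CPM in KO (log2 fold change 0.37, adjusted p = 0.0281). mt-Nd4, which forms one of the proton channels, was at 2666 and 2586 CPM in WT and 3318 and 3245 CPM in KO (log2 fold change 0.32, adjusted p = 0.00645). Both genes rose, and their groups lay apart. The other 3 were not called: mt-Nd2 (1339 and 1119 against 1584 and 1498 CPM), mt-Nd4l (421 and 335 against 499 and 490.5 CPM) and mt-Nd3 (271 and 144 against 324 and 272 CPM). In mt-Nd3, the shortest of the 3 after mt-Nd4l, WT replicate 3 was far below WT replicate 1, and the SE was 0.29. Its log2 fold change was 1.03 without WT replicate 1 (adjusted p = 0.0117) and 0.14 without WT replicate 3.

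Cytochrome b, the only mitochondrially encoded subunit of complex III, had the smallest difference. mt-Cytb stood at 5698 and 5041 CPM in WT and at 6319 and 6100 CPM in KO. The groups did not overlap, but the test did not call it (log2 fold change 0.21, SE 0.065, adjusted p = 0.0953).

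In complex IV, cytochrome c oxidase, the mitochondrial genome supplies the 3 catalytic core subunits. mt-Co1, which holds the site that reduces oxygen, was the most abundant member at 19604 and 18351 CPM in WT and 24311 and 23823 CPM in KO. It rose with a small error (log2 fold change 0.34, SE 0.040, adjusted p = 0.00562). mt-Co3 was at 2504 and 2439 CPM in WT and 3332 and 3123 CPM in KO, and rose as well (log2 fold change 0.39, adjusted p = 0.00663). mt-Co2, which takes electrons from cytochrome c, was at 3144 and 2652 CPM in WT and 3830 and 3609 CPM in KO, also without overlap, but just missed the threshold (log2 fold change 0.36, adjusted p = 0.0517).

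The ATP synthase takes mt-Atp6, part of the proton channel, and mt-Atp8 from the mitochondrial genome. mt-Atp6 was at 3102 and 2979 CPM in WT and 3985 and 3785 CPM in KO, and rose (log2 fold change 0.35, SE 0.045, adjusted p = 0.00746). mt-Atp8 was at 336 and 221 CPM in WT and at 345 in both KO libraries. WT replicate 1 thus lay close under the KO libraries, and the gene was not called (log2 fold change 0.31, SE 0.19, adjusted p = 0.354). It was 0.63 without WT replicate 1 (adjusted p = 0.00498) and 0.04 without WT replicate 3.

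**Figure D3:**
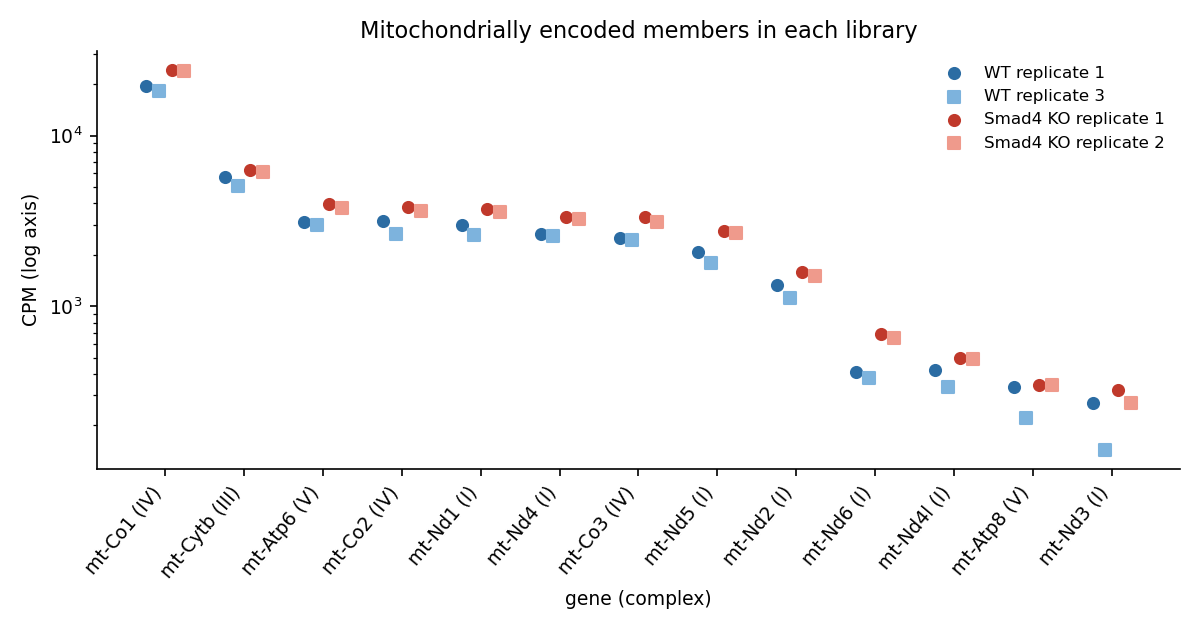
CPM on a log axis of the 13 mitochondrially encoded members, 1 point per library, ordered by their WT mean, with the complex in brackets. For every gene both KO points lie above both WT points, from mt-Co1 (24311 and 23823 against 19604 and 18351 CPM) to mt-Nd3.

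Several of these genes share bases. mt-Atp6 and mt-Co3 share only 1 base, chrM:8607, which is not printed. The longer shared stretches are shown because they limit how reads can be assigned to one gene. They are read from the GENCODE M21 transcripts on GRCm38, 5′ to 3′ on the strand of the first gene named, with capitals for the start codon of the second gene and the stop codon of the first. In the last stretch the genes lie on opposite strands, and only the stop codon of mt-Nd5 is in capitals.
mt-Atp8 and mt-Atp6, chrM:7927-7969: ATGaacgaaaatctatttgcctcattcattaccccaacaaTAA
mt-Nd4l and mt-Nd4, chrM:10167-10173: ATGcTAA
mt-Nd5 and mt-Nd6, chrM:13552-13565: ttaatctcgagTAA
The shared 43 bases are 21.1% of mt-Atp8, so its count depends on how reads there were assigned, while the 7 and 14 shared bases are small parts of the other genes. mt-Nd6 is the only one of the 13 on the other strand of the mitochondrial genome, where RNA copied from the opposite strand runs across it. On strandedness nothing was given in the sources used here, and so mt-Nd6 RNA and antisense RNA cannot be told apart.

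All 13 together made up 4.51% and 4.16% of all counts in WT and 5.40% and 5.22% in KO. With 2 libraries per genotype an exact permutation test cannot give a p below 0.333, so shares were not tested. Within the mitochondrial counts, the share of mt-Co1 was 44.0% and 45.2% in WT and 44.2% and 44.8% in KO. mt-Nd6 took 0.927% and 0.938% of the mitochondrial counts in WT and 1.25% and 1.22% in KO, and mt-Nd5 took 4.66% and 4.38% in WT and 5.01% and 5.03% in KO. mt-Cytb was the opposite case, with 12.8% and 12.4% in WT and 11.5% in both KO libraries. The other 9 overlapped, like mt-Co1, and mt-Nd3 and mt-Atp8 differed widely within WT (0.608% and 0.355%, and 0.753% and 0.545%). When libraries were scaled by the summed counts of the 13, a scaling chosen after seeing the data, only mt-Nd6 was called (log2 fold change 0.40, SE 0.086, adjusted p = 0.0159). mt-Nd5 (0.15, adjusted p = 0.176) and mt-Cytb (-0.13, adjusted p = 0.182) were not.

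mt-Nd6 kept its call whichever library was left out, with adjusted p at most 0.0206. Without KO replicate 1 it was the only one of the 13 called, and without KO replicate 2 there were 4, in fits that called 3.36% and 3.33% of all genes higher. Without WT replicate 1 there were 13 and without WT replicate 3 there were 9, where 9.12% and 8.36% of all genes were called higher. All 13 fold changes stayed positive in each of these 4 fits.

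The nuclear-encoded members did not rise with them. Complex I has 36 nuclear structural subunits among the members, all tested. Of these 2 fell, a share near the 6.40% of all tested genes, 0 rose and 34 were not called, with a median log2 fold change of -0.11. Ndufc1, a small accessory subunit of the membrane arm, was at 61.8 and 61.1 CPM in WT and 46.7 and 46.4 CPM in KO. Each pair lay within 1 CPM, and the groups were clearly apart (log2 fold change -0.40, SE 0.073, adjusted p = 0.0227). Ndufa11, another accessory subunit of the membrane arm, was at 49.2 and 55.3 CPM in WT and 38.8 and 39.4 CPM in KO. It fell by a similar amount (log2 fold change -0.42, SE 0.095, adjusted p = 0.0430). Without either KO library neither gene was called, and Ndufa11 was also not called without WT replicate 3 (adjusted p up to 0.180 for Ndufc1 and 0.236 for Ndufa11).

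The promoters of these genes are shown because they were the only nuclear members called. Each runs from 250 bases before to 50 bases after the transcription start in RefSeq (GRCm38.p6), 5′ to 3′ on the gene's strand, with capitals for letters of the motif of nuclear respiratory factor 1 (Nrf1, GCGCANGCG) in the Ndufa11 window and of the factor Yy1 (AAGATGGCG) in the Ndufc1 window.
Ndufa11, chr17:56717512-56717811, plus strand: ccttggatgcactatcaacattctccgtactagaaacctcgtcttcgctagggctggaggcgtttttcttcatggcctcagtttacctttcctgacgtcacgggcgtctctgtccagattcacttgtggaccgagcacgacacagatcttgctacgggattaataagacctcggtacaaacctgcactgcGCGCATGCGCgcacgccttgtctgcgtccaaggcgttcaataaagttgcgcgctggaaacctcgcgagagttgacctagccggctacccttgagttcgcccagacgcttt
Ndufc1, chr3:51408906-51409205, minus strand: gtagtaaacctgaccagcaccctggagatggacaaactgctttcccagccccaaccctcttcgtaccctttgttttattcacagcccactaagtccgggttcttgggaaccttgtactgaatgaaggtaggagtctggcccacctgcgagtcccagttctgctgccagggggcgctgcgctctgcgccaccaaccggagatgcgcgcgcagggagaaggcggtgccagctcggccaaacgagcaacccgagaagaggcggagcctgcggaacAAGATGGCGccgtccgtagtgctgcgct
The Nrf1 letters of Ndufa11 read as a match on both strands, and the Yy1 letters of Ndufc1 lie after the start.

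Nrf1, Yy1, the ETS factor Gabpa (CCGGAAGT) and the estrogen-related receptor Esrra (TCAAGGTCA) are regulators known for many respiratory chain genes. Their letters were searched on both strands in the same 300-base windows of the 76 nuclear members with a RefSeq promoter, out of 93 looked up, the empty second entry for Atp5o being left out. The Nrf1 letters were in 28.9% of the member genes against 9.63% of all protein-coding genes (6.25% of all promoters in the table). The Yy1 letters were in 10.5% against 2.14% (1.40% of all promoters), the Gabpa letters in 6.58% against 5.69% (3.89%) and the Esrra letters in 2.63% against 0.377% (0.423%). The 22 members with Nrf1 letters had a median log2 fold change of -0.10 with 1 called lower, and the 52 tested without them -0.06 with 1 called lower. The medians with and without the letters were -0.04 and -0.09 for Yy1, -0.07 and -0.08 for Gabpa and -0.11 and -0.07 for Esrra, and these differences were not tested. A match is a description of letters and not of binding.

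Most other complex I genes lay in a narrow band. The 7 nuclear core subunits, which take up and carry the electrons, had log2 fold changes from -0.18 to -0.00, all slightly negative, and 0 were called. Ndufa6, an accessory subunit of the matrix arm, was at 109 and 99.8 CPM in WT and 87.7 and 83.9 CPM in KO, apart but not called (log2 fold change -0.28, adjusted p = 0.0705; 0.0498 without WT replicate 3). Ndufa12, another matrix arm subunit, was at 50.6 and 27.3 CPM in WT and 19.7 and 20.3 CPM in KO. Both KO libraries were lower, but WT replicate 1 was further from WT replicate 3 than that library was from KO, and the test did not call it (log2 fold change -0.97, SE 0.29, adjusted p = 0.0887). Its log2 fold change was -0.47 without WT replicate 1 and -1.34 without WT replicate 3, where it was called (adjusted p = 0.00397). The 8 Ndufaf genes, assembly factors that do not stay in complex I, had a median of -0.00, and 0 were called. Those with the smallest p were Ndufaf7 (25.7 and 23.7 against 18.1 and 20.5 CPM, adjusted p = 0.110), and Ndufaf3 (18.2 and 20.1 against 15.7 and 14.8 CPM, adjusted p = 0.129). Ndufaf6 (5.45 and 5.28 against 5.77 and 6.06 CPM) and Ndufaf5 (13.1 and 10.6 against 11.6 and 10.4 CPM) were far from the threshold.

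Complex II, succinate dehydrogenase, is wholly nuclear-encoded and also an enzyme of the citric acid cycle. None of its 4 subunits was called, and all had a negative log2 fold change with a median of -0.12. Sdha, the flavoprotein, was at 487 and 427 CPM in WT and 432 and 418 CPM in KO. Sdhc, a membrane anchor, was at 196 and 212 CPM in WT and 178 and 184 CPM in KO. The groups of Sdha overlapped and those of Sdhc did not. The iron-sulfur subunit Sdhb (202 and 197 against 193 and 197 CPM) and the anchor Sdhd (281 and 265 against 249 and 249 CPM) were lower in both KO libraries, by small amounts.

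None of the 8 nuclear subunits of complex III was called, with a median of -0.15. The core protein Uqcrc1 was at 431 and 435 CPM in WT and 377 and 394 CPM in KO. Its groups were apart (log2 fold change -0.17, SE 0.053, adjusted p = 0.0997). Uqcrc2 (371 and 336 against 309 and 315 CPM), the hinge protein Uqcrh (149 and 135 against 126 and 118 CPM) and the Rieske iron-sulfur protein Uqcrfs1 (300.2 and 322 against 287 and 271 CPM) were also lower in both KO libraries and not called. Uqcrb, Uqcrq and Uqcr11, with positive values of 0.02 to 0.13, had KO levels between their WT levels.

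Complex IV has 18 nuclear structural subunits among the members, with several pairs of isoforms made in different tissues. Of these 14 were tested and 0 called, with a median of -0.04. Cox6a1 was the most abundant nuclear transcript of the complex, at 758 and 479 CPM in WT and 586 and 624 CPM in KO. Both KO libraries fell between the WT libraries, and the direction turned with the WT library used: the log2 fold change was -0.32 without WT replicate 3 (adjusted p = 0.0280) and 0.32 without WT replicate 1 (adjusted p = 0.0299). Cox5a, a matrix-side subunit, was at 347 and 336 CPM in WT and 297 and 287 CPM in KO. It was lower in both KO libraries and just missed the threshold (log2 fold change -0.23, SE 0.056, adjusted p = 0.0541). Ndufa4, once counted with complex I and now placed in complex IV, went the other way, at 61.7 and 50.3 CPM in WT and 100 and 71.0 CPM in KO. The KO libraries were higher but spread widely (log2 fold change 0.61, SE 0.19, adjusted p = 0.0970).

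Where a subunit has a muscle form, the other form was the more abundant in every library. Cox4i1 (401 and 506 against 602 and 339 CPM) was present without Cox4i2, its partner of hypoxic and lung tissue, and Cox7b and Cox8a without Cox7b2, Cox8b and Cox8c. These 4 absent isoforms had 0 counts in all libraries, which allows up to 0.0132 CPM over the 4 libraries. Such floors of 3 counts cover counting error only. Cox6b1 held 99.2% to 99.6% of Cox6b counts per kilobase of transcript and the testis form Cox6b2 the rest. Cox6a2, the heart and muscle form of Cox6a1, had 16 and 16 counts in WT and 0 in KO, at least 13.5-fold lower against a floor of 3 counts over the KO libraries. It was not called (adjusted p = 0.0559), and it made up 0.0312% and 0.0643% of Cox6a counts per kilobase in WT. Cox7a1, the muscle form of Cox7a2, was at 13.5 and 4.57 CPM in WT and 4.99 and 5.46 CPM in KO. Only WT replicate 1 was high: there Cox7a1 made up 14.3% of Cox7a counts per kilobase, against 4.17% to 4.84% in the other libraries. Its log2 fold change was 0.18 without WT replicate 1 and -1.37 without WT replicate 3 (adjusted p = 0.0128). Cox7a2 was at 135 and 176 CPM in WT and 182 and 180 CPM in KO, higher in KO without being called (log2 fold change 0.22, SE 0.13; 0.03 without WT replicate 1, and 0.42 with a call without WT replicate 3, adjusted p = 0.0202). Ndufa4l2, a hypoxia-responsive relative of Ndufa4, had 17 and 0 counts in WT and 6 and 0 in KO, and was too low to test.

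In the ATP synthase, all 16 nuclear structural subunits were tested, 0 were called and the median was -0.05. Atp5b, the catalytic β subunit, was at 1932 and 1567 CPM in WT and 1606 and 1699 CPM in KO. Its KO libraries lay between its WT libraries. Atp5a1, the α subunit, was at 1551 and 1465 CPM in WT and 1386 and 1367 CPM in KO, below WT by a small amount (log2 fold change -0.13, SE 0.048, adjusted p = 0.138). Atp5o of the stalk (281 and 247 against 219 and 242 CPM, adjusted p = 0.223) was likewise lower in both KO libraries. Atp5h, a peripheral stalk subunit, was at 166 and 121 CPM in WT and 120 and 127 CPM in KO, so its groups overlapped. Its log2 fold change was 0.02 without WT replicate 1 and -0.43 without WT replicate 3, where it was called (adjusted p = 0.0266). The proton-carrying c ring is encoded by Atp5g1, Atp5g2 and Atp5g3, which make the same mature protein. Per kilobase their shares were nearly the same in all 4 libraries, with 69.5% to 70.2% from Atp5g3, 25.7% to 26.2% from Atp5g2 and 3.85% to 4.48% from Atp5g1. The share of Atp5g1 rests on a transcript model of 4715 bases and would be larger with a shorter one.

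The call counts of the nuclear members depended on single libraries. Without WT replicate 1, 10 of 88 were called higher and 2 lower, where 9.12% and 6.48% of all genes were called, and the median log2 fold change was 0.02. The 10 were Ndufa1, Ndufa3, Ndufs4, Uqcr11, Cox6a1, Cox8a, Atp5e, Atp5j2, Atp5k and Atp5mpl, most with short transcripts. Without WT replicate 3, 13 of 89 were called lower and 1 higher (Cox7a2), where 5.15% and 8.36% of all genes were called, and the median was -0.23. The 13 included Ndufa1, which thus turned from 0.54 without WT replicate 1 to -0.74 without WT replicate 3, and the α and β subunits Atp5a1 (-0.17) and Atp5b (-0.22). Without KO replicate 1 or KO replicate 2, 0 nuclear members were called, and fewer genes were called in all (3.36% higher and 2.59% lower, and 3.33% and 2.60%). These genes, apart from the members described above, were named after their values were seen.

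Set against their partners in the same complex, the mitochondrially encoded transcripts were more abundant in KO. Counts of the mitochondrially encoded members per count of the nuclear structural subunits were 2.76 and 2.90 in WT and 3.79 in both KO libraries. The WT and KO values were well apart. For complex I the ratio was 2.96 and 2.97 in WT and 4.24 and 4.27 in KO, and for complex III 3.05 and 3.01 in WT and 3.87 and 3.71 in KO. For complex IV it was 7.84 and 8.69 in WT and 10.0 and 10.9 in KO, and for the ATP synthase 0.534 and 0.581 in WT and 0.767 and 0.733 in KO. The KO mean was 1.25-fold (complex III) to 1.43-fold (complex I) the WT mean. In all 4 complexes both KO libraries were above both WT libraries, and the ratio does not depend on library scaling. The summed CPM show which side moved more. The mitochondrially encoded sum was 44583 and 40647 CPM in WT and 55005 and 53175 CPM in KO, 1.27-fold higher in the mean. The nuclear structural subunits summed to 16136 and 14005 CPM in WT and 14522 and 14044 CPM in KO, so on this scale the KO libraries fell within the WT range. As a share of all counts they were 1.63% and 1.43% in WT and 1.43% and 1.38% in KO, with both KO libraries below both WT libraries. The nuclear sums of complexes II and III were lower in both KO libraries in CPM too (1167 and 1102 against 1052 and 1047, and 1870 and 1675 against 1635 and 1643).

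**Figure D4:**
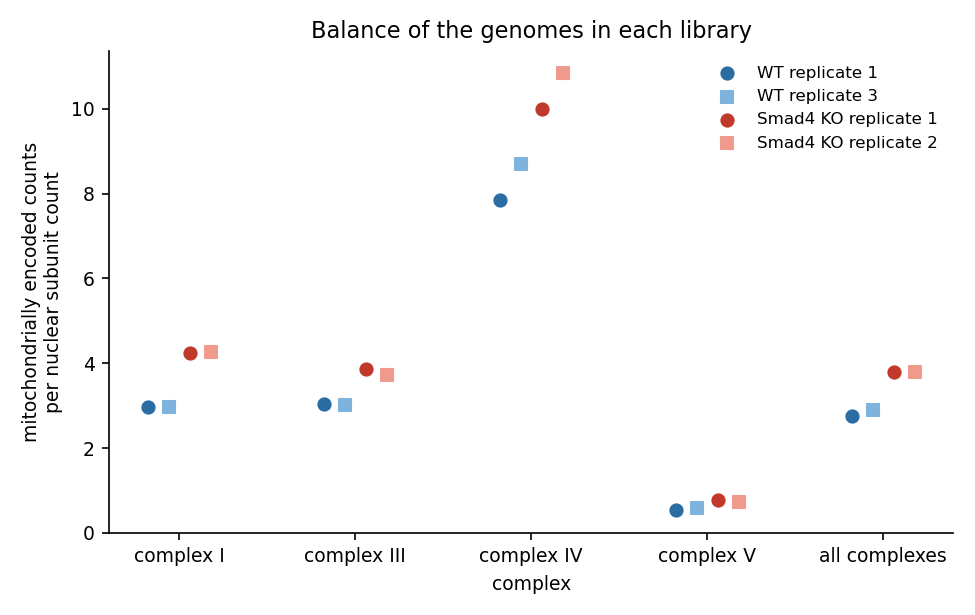
Counts of mitochondrially encoded members per count of nuclear structural subunits in each library, for the 4 complexes with both kinds and for all together, 1 point per library. Both KO points lie above both WT points in each complex, from 4.24 and 4.27 against 2.96 and 2.97 in complex I to 0.767 and 0.733 against 0.534 and 0.581 in complex V.

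Levels per kilobase of transcript, the scale on which genes can be compared, put the mitochondrial genes far above most nuclear ones. Over the 4 libraries mt-Co1 averaged 13930 CPM per kilobase, mt-Atp6 5085, mt-Cytb 5061 and mt-Co2 4837, down to mt-Nd6 at 1025 and mt-Nd3 at 727. The highest nuclear members were Cox6a1 at 1072, Atp5b at 888, Cox8a at 733 and Cox4i1 at 604 CPM per kilobase. Complex I and II subunits were lower, with Ndufb9 at 208 and Sdhd at 212 the highest. The Ndufaf assembly factors were lower still, at 3.16 (Ndufaf4) to 26.3 (Ndufaf8) CPM per kilobase. Without strand or the treatment of nuclear copies of mitochondrial DNA being stated, the mitochondrial levels are uncertain to that extent.

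Genes that act around the complexes were read from lists of known members. Regulators of mitochondrial biogenesis held 2 large single changes. Ppargc1a, which encodes PGC-1α, a coactivator that drives nuclear respiratory genes, was at 43.0 and 44.5 CPM in WT and 13.1 and 14.1 CPM in KO. It fell 3.22-fold (log2 fold change -1.69, SE 0.10, adjusted p = 7.51e-04). Esrrg, an estrogen-related receptor that works with PGC-1α, was at 4.99 and 5.87 CPM in WT and 0.632 and 0.390 CPM in KO (log2 fold change -3.41 with SE 0.34, adjusted p = 0.00351). Both genes fell whichever library was left out (adjusted p at most 0.0175). Of the 21 tested regulators 4 rose and 2 fell, against 8.83% and 6.40% of all tested genes. The risen ones were Pparg (54.9 and 50.4 against 72.7 and 72.8 CPM), Myc, Ppard and Hif1a, the last 3 named after their values were seen. None of these 4 calls held in every fit without a library: Pparg and Myc were not called without either KO library (adjusted p up to 0.133 and 0.149), Ppard not without WT replicate 3 or KO replicate 2 (up to 0.131), and Hif1a in none of the 4 fits. The factors whose motifs were searched were not called: Nrf1 (adjusted p = 0.635), Yy1 (0.814), Gabpa (0.630) and Esrra (0.691). Tfam, which packages and transcribes mitochondrial DNA, was at 43.8 and 39.0 CPM in WT and 46.3 and 44.4 CPM in KO (log2 fold change 0.13, adjusted p = 0.434).

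Of the 37 tested genes for mitochondrial transcription, RNA processing and DNA upkeep, 0 were called (6 at an unadjusted p under 0.05, against 29.9% of all tested genes), and their median was -0.05. The smallest p belonged to Fastkd1, Pde12 and Polg2 (adjusted p = 0.0530 to 0.0888). Among the 78 mitochondrial ribosome genes 0 were called (4 at an unadjusted p under 0.05, also a smaller share than that of all genes; smallest adjusted p 0.0806), with a median of -0.03.

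The citric acid cycle and pyruvate entry, which feed NADH and succinate to the chain, had called genes in 1 direction. Of 25 genes tested, 7 fell and 0 rose, against 6.40% and 8.83% of all genes, and both KO libraries were below both WT libraries for 17 of the 25, against 28.4% of all genes. The list's median log2 fold change was -0.16. Idh3a, a subunit of the NAD-dependent isocitrate dehydrogenase, was at 209 and 223 CPM in WT and 149 and 150 CPM in KO (log2 fold change -0.53 with SE 0.063, adjusted p = 0.00603). Cs, citrate synthase, was at 769 and 727 CPM in WT and 569 and 562 CPM in KO (log2 fold change -0.40 with SE 0.052, adjusted p = 0.00789). Pdk2, a kinase that inhibits pyruvate dehydrogenase, fell 1.94-fold (58.4 and 47.7 against 27.2 and 27.4 CPM, adjusted p = 0.00768). The others, named after their values were seen, were Suclg1, Ogdh, Pcx and Idh2, with log2 fold changes of -0.34 to -0.47. None of the 7 kept its call without either KO library, in fits that also called fewer of all genes. Their log2 fold changes stayed negative whichever library was left out, from -1.10 (Pdk2) to -0.30 (Ogdh).

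**Figure D5:**
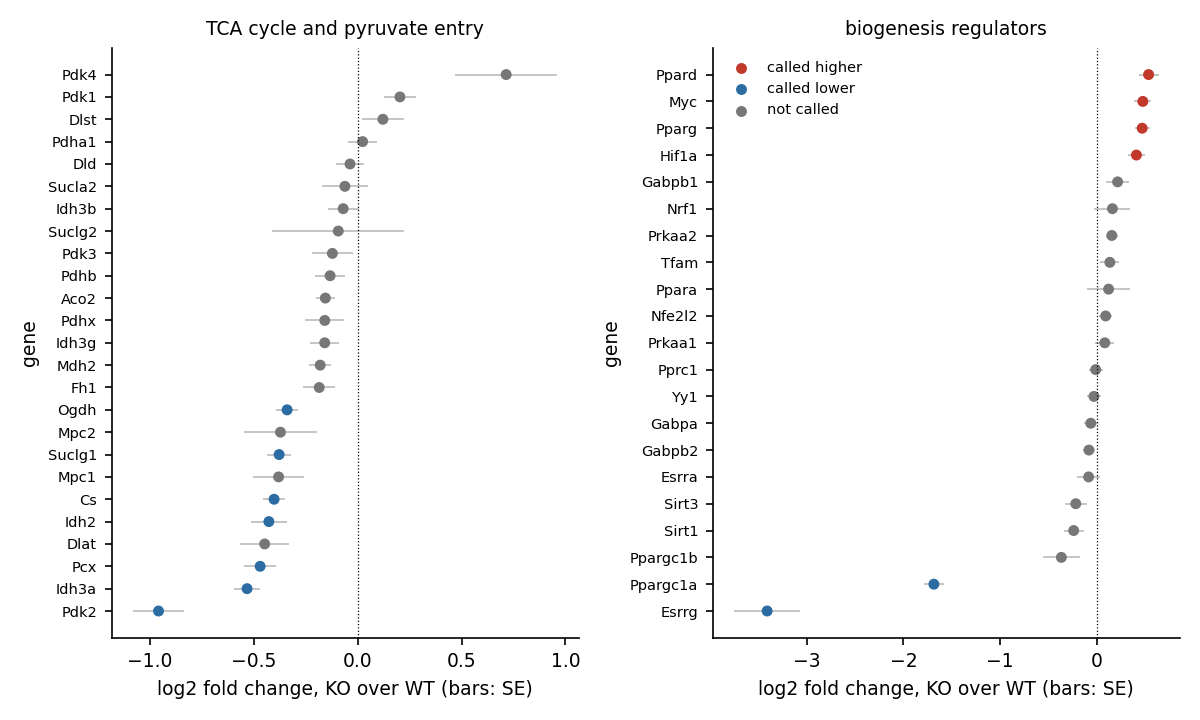
Log2 fold change of KO over WT with its SE for the tested genes of the citric acid cycle and pyruvate entry (left) and the regulators of mitochondrial biogenesis (right). The 7 blue points on the left run from Pdk2 to Ogdh, and on the right Ppargc1a at -1.69 and Esrrg at -3.41 lie far below the rest.

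Among the assembly factors of complexes II to V, 1 of 38 rose and 2 fell, below the 8.83% and 6.40% of all tested genes. Lyrm7, the chaperone that helps place the Rieske protein Uqcrfs1 into complex III, was at 8.73 and 6.90 CPM in WT and 2.08 and 1.41 CPM in KO. It fell 4.49-fold (adjusted p = 0.00771) and kept this call whichever library was left out, while Uqcrfs1 itself was not called. Cox10, which makes heme for cytochrome c oxidase, fell (62.2 and 59.8 against 46.1 and 48.4 CPM, adjusted p = 0.0356), and the hypoxia-inducible Higd1a rose (63.5 and 67.4 against 94.3 and 97.2 CPM, adjusted p = 0.00775). Cox10 kept its call in 1 of the 4 fits without a library and Higd1a in 2. Of 10 other complex I assembly genes 0 were called (2 at an unadjusted p under 0.05, against 29.9% of all tested genes).

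The electron carriers and the enzymes that pass electrons to coenzyme Q were mixed, with 4 of 25 risen and 3 fallen, against 8.83% and 6.40% of all tested genes. Coq8a, needed to make coenzyme Q, fell 2.92-fold (27.3 and 26.5 against 7.67 and 10.7 CPM, adjusted p = 0.00594), and choline dehydrogenase Chdh fell 1.52-fold (182 and 178 against 115 and 122 CPM, adjusted p = 0.00452). Gpd2, the mitochondrial glycerol phosphate dehydrogenase, rose 1.45-fold (113 and 117 against 166 and 167 CPM, adjusted p = 0.00533). Coq8a and Chdh kept their calls whichever library was left out, and Gpd2 was not called without KO replicate 2 (adjusted p = 0.0578). The other 4, named after their values were seen, were Coq10a, which fell, and Coq10b, Sqor and Pdss1, which rose. Coq10a and Pdss1 kept their calls in 1 of the 4 fits without a library, and Coq10b and Sqor in 2. Of the 15 tested inner membrane carriers and related genes, the ADP/ATP carrier Slc25a4 rose (11.9 and 11.3 against 19.8 and 20.5 CPM, adjusted p = 0.00968) and 0 fell. Of 29 import, cristae and quality control genes, the chaperonin Hspd1 rose (366 and 369 against 460 and 445 CPM, adjusted p = 0.0193) and 0 fell. In both lists the shares called were below the 8.83% higher and 6.40% lower of all tested genes. Slc25a4 and Hspd1 were each not called without either KO library.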

How the data were processed

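The authors deposited raw counts of reads per gene, in whole numbers, for 4 libraries. Per the labels' protocols, 1.5 µg of total RNA went into each library, with random hexamers as primers; depletion of ribosomal RNA, not given in the sources used here, could change the mitochondrial shares. HISAT2 2.1.0, StringTie 1.3.3b, SAMtools 1.9 and FastQC were used on GRCm38 (mm10), per the submitters' processing notes; which tool made the counts, how reads matching several genes were treated and the annotation are not given there. The depth per library, 42577920 to 67927291 counts, sets the precision: 1 count was 0.0150 to 0.0229 CPM. Each column was matched to its library by title, and 0 columns were left over.

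Symbols, positions and transcripts came from GENCODE M21, which named 31207 of 31227 IDs. Members were grouped by complex and genome of origin; transcript lengths are of 1 representative transcript per gene. The members and lists were chosen with earlier results of these data known. Genes were filtered by filterByExpr, scaled by TMM and fitted in R 4.3.3 with edgeR 4.0.16, with genotype tested by quasi-likelihood, with p-values adjusted over 15838 genes by Benjamini and Hochberg. Each SE was derived from the fold change and its F statistic. The fit was tested on simulated data. The biological coefficient of variation was 0.196.

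Genes named were every mitochondrially encoded member; in each nuclear complex the most abundant member, the 4 with the smallest p and all isoform sets; the 4 assembly factors and the 3 genes of each list with the smallest p; and Smad4. Of the genes this rule took, 1 is not reported here. Alternatives were DESeq2 1.42.0 size factors, library totals, scaling without mitochondrial genes, no low-count filter, the DESeq2 Wald test, leaving out each library, a motif window of 100 bases before the start, and, added after seeing the data, scaling by the mitochondrial sum.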

Additional observations from a re-analysis of the deposited data

How the results depend on the processing

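The number of mitochondrially encoded members called higher was 7 and stayed at 7 or 8 with DESeq2 size factors, library totals or scaling without mitochondrial genes; it was 11 without the low-count filter, 10 by the DESeq2 Wald test and 1 to 13 when a library was left out. Their median log2 fold change ran from 0.28 to 0.46 when a library was left out and was 0.31 with library totals, which moved the median of all genes to -0.04. Nuclear-encoded members called lower numbered 4 with library totals, 6 by the DESeq2 Wald test and 0 to 13 when a library was left out, and those called higher 1 by the DESeq2 Wald test and 0 to 10 when a library was left out. The DESeq2 Wald test also called more of all 15838 tested genes, 1922 higher and 1524 lower, against 1398 and 1014 in the main fit. DESeq2 size factors called 1361 of them higher and 1028 lower, and library totals 1232 and 1211. Scaling without mitochondrial genes called 1399 and 1012. With no low-count filter 1560 were called higher and 1105 lower, of 19618 genes. The nuclear median ran from -0.23 to 0.016 when a library was left out. Scaling by the mitochondrial sum moved the median of all genes to -0.34. Of all 15838 tested genes it called 877 higher and 4471 lower. It left 1 mitochondrial member higher and 50 of 88 nuclear members lower, with medians of 0.018 and -0.42. It turned mt-Nd4 to -0.025, mt-Co1 to -0.0020 and Cox6b1 to -0.33. The mitochondrial members set this scale themselves, so their small median follows from the scaling. The log2 fold change of Cox6a1 was -0.32 to 0.32 when a library was left out. The citric acid cycle count ran from 0 to 8 and the count of risen biogenesis regulators from 0 to 3 when a library was left out. The shorter motif window gave the Nrf1 letters in 23.7% of member genes, against 7.46% of all protein-coding genes. There the Yy1 letters were in 10.5% against 1.73%, the Gabpa letters in 6.58% against 4.78% and the Esrra letters in 2.63% against 0.126%. Beyond what that scaling itself sets, the cause of these changes was not tested. No paired analysis was possible because the genotypes share only 1 replicate number.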
